A study of Mus musculus with 21 samples.

Results

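PSME3 peaks that recurred between replicates and lay at gene boundaries were examined in C2C12 cells, a mouse myoblast line that differentiates into muscle in culture. A peak of the pooled cycling PSME3 list was kept when it shared at least 1 bp with a peak in at least 2 of the 3 cycling PSME3 replicate lists and lay within 1 kb of a start or end of a gene of GRCm38. This left 618 of 5812 pooled PSME3 peaks, which are called the replicated boundary peaks here. Among all pooled peaks, 837 (14.4%) met the first condition and 3449 (59.3%) the second. The remaining 2831 boundary peaks, found in 0 or 1 replicate list, served as the comparison, with 8759 pooled H3K4me3 boundary peaks that had no PSME3 peak. The sites were chosen by their PSME3 peaks in cycling cells, so that PSME3 strength and replication there are given as a description, with no test.

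The positions of PSME3 and of H3K4me3, trimethylation of lysine 4 on histone H3, were mapped by CUT&RUN, in which an antibody directs a nuclease to cut and release the DNA around a chromatin protein in permeabilized cells. Cycling cells were grown in 20% FBS and frozen unfixed in 10% DMSO in FBS, with 3 replicates per antibody. Day 2 cells were collected after 48 h in 2% horse serum and handled in 4 ways, fresh or frozen and with or without crosslinking (0.1% formaldehyde, 5 min), at 1 library per antibody and preparation. No group carried a knockdown or a transgene, all came from the same cell line, and the IgG libraries were not analysed here.

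PSME3, also called PA28γ or REGγ, is a nuclear activator that caps the 20S proteasome and opens it to protein substrates without ATP. H3K4me3 is laid down around the start sites of genes that are being transcribed or are ready to be, and broad domains of it are typical of highly transcribed genes. Promoters of CpG islands often serve a pair of genes that point away from each other, so that one open region holds both start sites.

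The lists differed in length. The replicate PSME3 lists held 1200, 776 and 3070 peaks in replicates 1, 2 and 3, and the H3K4me3 list of replicate 2 held 40999 peaks with a median width of 662 bp, against 1781 and 1784 bp in replicates 1 and 3. Read depth is unknown, because the lists give no numbers of reads. H3K4me3 lay within 1 kb of 7 of 7 myoblast genes in every library (Myod1, Myf5, Des, Cdh15, Vim, Itga7 and Chrna1), with a replicated PSME3 peak at Vim. It lay at 1 or 2 of 8 genes of differentiating muscle in the cycling replicates and at 8 of 8 in each day 2 library, Myog and Myh3 among them. Marks at genes of blood cells, neurons and hepatocytes covered at most 2 of 5 genes in any library.

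Stretches of promoter DNA are shown in 2 sets, as examples of a single and a shared promoter. The first set lies upstream of a single start, at 2 of the 10 strongest peaks found in all 3 replicate lists, and the second between the starts of 3 strong divergent gene pairs. They were taken where the start in the promoter table allowed the bases to end outside the gene, and so leave out some stronger sites, that at Fbrs among them. All are from the RefSeq promoter table of GRCm38.p6, on the strand named, and end before the genes begin. The PSME3 peak covers the whole stretch at Rab11fip5 and only part of each other stretch. It ends at 5088453 at Yif1a and at 128103108 at Zranb3, so some marked boxes there lie outside the peak. Capitals mark GC boxes (GGGCGG or its complement CCGCCC), bound by SP and KLF factors, and CCAAT boxes (CCAAT or its complement ATTGG), bound by NF-Y.
Yif1a, upstream of the start, chr19:5088288-5088537, plus strand: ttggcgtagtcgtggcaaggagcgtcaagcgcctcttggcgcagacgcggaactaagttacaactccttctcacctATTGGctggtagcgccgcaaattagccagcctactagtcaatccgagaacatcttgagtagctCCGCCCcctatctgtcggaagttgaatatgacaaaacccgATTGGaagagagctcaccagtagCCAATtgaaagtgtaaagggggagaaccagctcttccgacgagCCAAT
B4galt5, upstream of the start, chr2:167349179-167349428, minus strand: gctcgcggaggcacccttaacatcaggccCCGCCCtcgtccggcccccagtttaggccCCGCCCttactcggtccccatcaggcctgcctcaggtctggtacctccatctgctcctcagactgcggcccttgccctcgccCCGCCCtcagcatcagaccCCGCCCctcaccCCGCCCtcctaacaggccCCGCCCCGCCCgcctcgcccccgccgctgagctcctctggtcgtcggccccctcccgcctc
Rab11fip5/4933423K11Rik, between the starts, chr6:85374685-85374853, plus strand: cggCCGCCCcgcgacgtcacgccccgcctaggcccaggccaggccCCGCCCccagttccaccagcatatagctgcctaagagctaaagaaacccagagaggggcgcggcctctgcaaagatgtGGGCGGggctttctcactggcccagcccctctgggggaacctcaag
Ubxn6/Hdgfl2, between the starts, chr17:56079334-56079598, plus strand: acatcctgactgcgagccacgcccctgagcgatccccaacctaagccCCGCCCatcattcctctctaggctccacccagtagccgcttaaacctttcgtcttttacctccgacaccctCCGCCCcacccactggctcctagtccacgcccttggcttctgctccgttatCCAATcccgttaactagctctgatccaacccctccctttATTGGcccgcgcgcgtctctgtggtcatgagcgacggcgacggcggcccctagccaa
Zranb3/R3hdm1, between the starts, chr1:128103054-128103281, plus strand: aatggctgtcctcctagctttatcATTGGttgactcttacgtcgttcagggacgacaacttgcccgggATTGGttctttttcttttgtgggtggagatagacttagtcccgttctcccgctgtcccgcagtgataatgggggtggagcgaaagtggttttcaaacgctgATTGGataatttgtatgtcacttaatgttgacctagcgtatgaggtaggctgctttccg
B4galt5 held 7 GC boxes and 0 CCAAT boxes in 250 bases, while Yif1a held 1 GC box and 4 CCAAT boxes. The 3 divergent stretches held 3, 2 and 0 GC boxes and 0, 2 and 3 CCAAT boxes, in the order given, so these 5 stretches did not share one arrangement of the letters.

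The strongest site lay between Prr14, whose protein ties heterochromatin to the nuclear lamina, and Fbrs, a relative of AUTS2, at chr7:127477459-127479228. Its PSME3 fold enrichment, the ratio to the background that the peak caller estimated, was 16.6, 16.5 and 23.4 in replicates 1, 2 and 3 and 20.1 in the pooled list. The centre of this peak lay at -71.5 bp from the start of Fbrs, and the end of Prr14 was also within 1 kb. The next by pooled fold enrichment among the 175 peaks found in all 3 lists was the divergent promoter of Rab11fip5, an effector of RAB11 in endosome recycling, and the lncRNA 4933423K11Rik, with 7.57, 6.26 and 6.18 in the replicates and 6.68 in the pooled list. Yif1a, which acts in transport between the endoplasmic reticulum and the Golgi, had values of 8.996, 4.71 and 7.03. Replicate 1 gave the highest of the 3 values at each of the 10 strongest sites except Fbrs and Prr14.

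The others of the 10 were at Zbtb22 and Daxx, which encodes a chaperone of histone H3.3 (6.20 in the pooled list), Tbl2 (6.16), Mtrf1l, a release factor of mitochondrial translation (5.92), Myo6, the actin motor that moves to minus ends (5.86), Rhpn2 (5.61), Hrob, a factor of homologous recombination (5.60), and B4galt5, a galactosyltransferase of glycolipids (5.53). The peak at Tbl2 lay over the gene start, with its centre at -7.5 bp from it, and that at Mtrf1l lay inside the gene, 361 bp from the boundary at its nearest edge. These genes belong to unlike pathways.

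**Figure D1:**
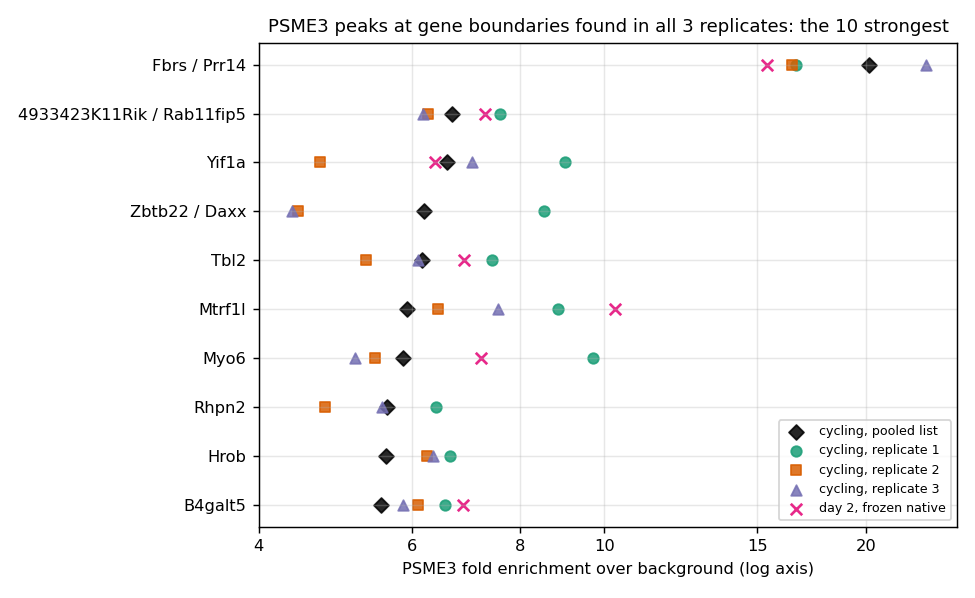
PSME3 fold enrichment over background (log axis) at the 10 strongest boundary peaks found in all 3 cycling replicate lists. Diamonds show the pooled list, circles, squares and triangles replicates 1 to 3, and crosses the frozen native day 2 list where it had a peak. The site at Fbrs and Prr14 sits apart at 20.1 in the pooled list, with the others between 5.53 and 6.68, and 7 of the 10 have a day 2 value.

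Over all 618 sites, the median fold enrichment in the pooled list was 3.42 (range 2.41 to 20.1), against 2.88 at the other boundary peaks. Median widths were 744 and 428 bp. Replicate 3 had a peak at 598 of the sites, replicate 1 at 420 and replicate 2 at 393. Sites of replicates 1 and 3 alone numbered 225, sites of replicates 2 and 3 alone 198, and sites of replicates 1 and 2 alone 20, so the membership leaned on the longest list. Median fold enrichment at the sites was 4.86, 4.11 and 3.84 in replicates 1, 2 and 3, close to the medians of the whole lists (4.61, 4.06 and 3.63). The sites nearest to the 1 kb limit on the inside were at Apol7a (890 bp, fold enrichment 3.35), Coq10a (894 bp, 3.02) and BC065397 with Morf4l2 (956 bp, 2.88), and on the outside at Tsga10 (1029 bp, 3.05), Nadk (1033 bp, 3.62) and Gm9875 (1055 bp, 3.06). Values on the 2 sides of the limit overlapped. Per 100 PSME3 boundary peaks, chromosomes 10 and 19 held the most sites (25.4 and 24.2), while chromosome 11, with the largest number of sites (55), held 17.2. The X chromosome had 1 site among its 16 PSME3 boundary peaks.

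The sites lay within 1 kb of 876 genes, 1.75% of all genes in the table. Of these genes, 720 were protein-coding, which is 3.29% of the protein-coding genes and 5.95% of those with a pooled H3K4me3 boundary peak, and 132 were lncRNA genes. Strand was known for 27024 of the 49976 genes in the table. A gene start lay within 1 kb of 521 sites (84.3%, exact 95% Clopper-Pearson interval 81.2 to 87.1%). The share was 79.1% at the other PSME3 boundary peaks and 72.7% at the H3K4me3 boundary peaks without PSME3. Gene ends alone lay at 8 sites (1.29%), against 2.79% and 5.02% in those 2 sets. At 5 sites a gene end lay beside a gene of unknown strand. Another 84 sites (13.6%) had only genes whose strand was not known, against 17.4% of the other PSME3 boundary peaks, so part of the gap in gene starts went with known strand. A boundary lay inside the peak itself at 447 sites (72.3%), against 55.1% of the other boundary peaks, which are narrower. All intervals of this kind cover counting error alone, since peaks are not replicates.

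Relative to the nearest gene start, peak centres had a median of 28 bp into the gene (quartiles -155 and 220 bp), and 53.2% lay downstream of it. For the other boundary peaks the median was 85.5 bp, and 64.4% lay downstream. At sites with 1 gene alone, where no second start can pull the centre, 173 of 311 centres (55.6%) lay downstream, with a median of 52.5 bp, against 67.0% and 108.5 bp. The replicated peaks were thus spread more evenly to both sides of the start, and not closer to it, since 82.7% of their centres lay within 500 bp of a start against 87.0% of the others (78.5% and 84.2% with 1 gene alone).

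**Figure D2:**
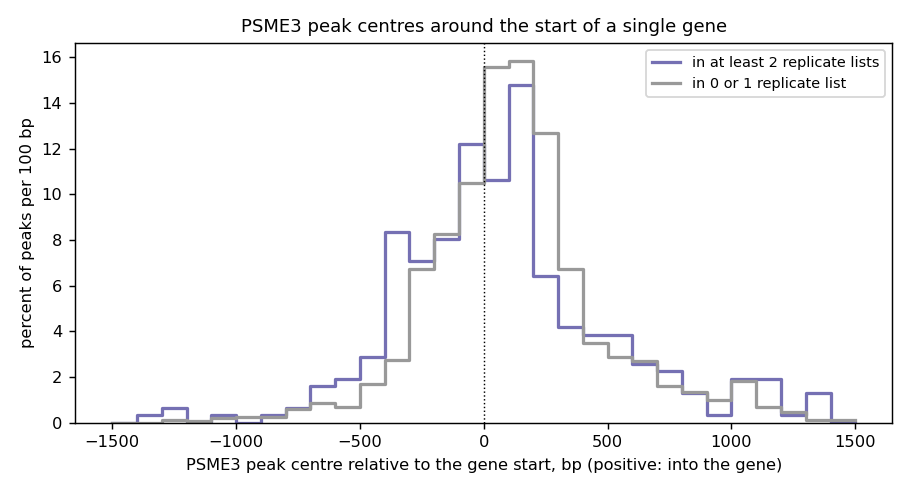
Percent of PSME3 peaks per 100 bp (y axis) by the position of the peak centre relative to the gene start in bp (x axis, positive into the gene), for boundary peaks with 1 gene within 1 kb. The 311 replicated peaks are spread to both sides of the start, with 55.6% downstream, while 67.0% of the peaks found in 0 or 1 replicate list lie downstream.

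Many sites were shared by neighbouring genes. Boundaries of 2 or more genes lay within 1 kb of 240 sites (38.8%, interval 35.0 to 42.8%), where 31.8% of all pooled PSME3 boundary peaks and 32% of all pooled H3K4me3 boundary peaks had as many. The share was 30.3% at the other PSME3 boundary peaks and 29.3% at the H3K4me3 boundary peaks without PSME3. In all, 221 sites had 2 genes, 17 had 3 and 2 had 4. One of these last 2 lay at Cdk9, the kinase of P-TEFb that releases paused RNA polymerase II, with Gm33457, Mir2861 and Mir3960, and had a fold enrichment of 4.57, 5.10 and 3.95 in the replicates. The other lay at Acaa2, a thiolase of mitochondrial fatty acid oxidation, with the small RNA genes Gm23119 and Scarna17 and the gene Gm41774. Part of the difference went with the width of the peaks. Averaged over 10 classes of PSME3 peak width, the gap to the other boundary peaks fell from 8.53 to 4.59 percentage points, and with protein-coding genes alone the shares were 24.3% and 19.3%. Without replicate 3, which left 195 sites, 43.1% were near 2 or more genes.

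A divergent pair of starts, 2 genes on opposite strands that point away from each other, lay within 1 kb of 80 sites (12.9%, interval 10.4 to 15.9%). Genes with no known strand could not enter a pair, so these shares are lower bounds. The share was 10.6% over all PSME3 boundary peaks and 7.91% over all H3K4me3 boundary peaks, and it was 10.0% at the other PSME3 boundary peaks and 6.83% at the H3K4me3 boundary peaks without PSME3. The interval of the replicated sites overlaps that of the other PSME3 peaks (8.95 to 11.2%), and its lower bound lies above the share at the H3K4me3 peaks without PSME3. Averaged over the width classes, the gap to the other PSME3 peaks was 0.885 percentage points instead of 2.91. At these promoters the 2 starts were a median of 185.5 bp apart (12 to 892 bp), against 129 bp at the other PSME3 peaks with such a pair. Another 58 sites (9.39%) had opposite starts that overlapped, with both genes covering the same stretch, against 5.76%.

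Strong divergent promoters besides that of Rab11fip5 were those of Ubxn6, a cofactor of the p97 ATPase, with Hdgfl2, a reader of chromatin (fold enrichment of 6.17, 5.07 and 4.78 in replicates 1, 2 and 3), and of Rita1, a regulator of Notch signalling, with Ddx54, an RNA helicase (6.46, 6.53 and 4.65). Their starts were 266 and 493 bp apart. Zranb3, which remodels stalled replication forks, shared a promoter with R3hdm1, and that peak was listed in replicates 2 and 3 (4.67 and 5.05) and not in replicate 1, with a pooled value of 5.03. Gpr155 with Gm13707, Cep57l1 with Sesn1, a stress-induced inhibitor of mTORC1, Sin3a, the scaffold of a histone deacetylase complex, with Gm10658, and Gamt, an enzyme of creatine synthesis, with Dazap1, an RNA-binding protein, followed with pooled values of 4.55 to 4.84. These pairs differed in spacing, from 25 bp at Gm10658 and Sin3a to 706 bp at Cep57l1 and Sesn1.

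Letters of known promoter elements were counted in the 250 bases before 786 start sites of 659 genes at the sites. On either strand, GGGCGG was present in 73.2% of them and CCAAT in 44.0%. At the other PSME3 boundary peaks the shares were 68.9% and 39.5%, at the H3K4me3 boundary peaks without PSME3 56.1% and 32.6%, and over all RefSeq promoters 32.7% and 33.8%. TATAAA was found in 3.82%, against 4.57% at the other PSME3 boundary peaks, 6.58% at the H3K4me3 boundary peaks without PSME3 and 12.4% of all promoters. The E-box CAGCTG, a sequence that myogenic factors such as MYOD1 can bind, was found in 11.5%, near the 13.0% of all promoters. The ETS sequence CCGGAAG was in 11.5% and the NRF1 sequence GCGCATG in 3.94%, against 13.9% and 6.37% at the other PSME3 boundary peaks. At the H3K4me3 boundary peaks without PSME3 they were in 14.1% and 6.07%, and over all promoters in 6.91% and 3.24%. The E-box CACGTG was in 6.49% of the windows. Its share was 7.97% at the other PSME3 boundary peaks, 8.68% at the H3K4me3 boundary peaks without PSME3 and 6.02% of all promoters. The CRE core TGACGT was in 9.92%, against 11.0%, 10.1% and 6.47% in the same order. The YY1 sequence ATGGCGG was in 5.09%, against 4.48%, 4.04% and 2.21%. TCTCGCG, the centre of a longer element of housekeeping promoters, was in 3.94%, against 4.54%, 4.50% and 2.10%. The observed to expected CpG ratio had a median of 0.772, like the 0.782 of the other PSME3 peaks. It was 0.731 at the H3K4me3 boundary peaks without PSME3 and 0.374 over all promoters. A match says that the letters are present and not that a factor was bound, and several of these motifs share letters and are rich in G and C.

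H3K4me3 covered nearly every site, as it did the other PSME3 boundary peaks. A pooled H3K4me3 peak overlapped 614 of 618 (99.4%), against 93.6% of all pooled PSME3 peaks and 98.3% of the other PSME3 boundary peaks, and 611 lay fully inside it. The H3K4me3 lists of replicates 1, 2 and 3 had a peak at 610, 615 and 613 sites. The PSME3 peak was narrower than the mark, at a median of 19.7% of the width of the H3K4me3 peak. The median was 14.0% at the other PSME3 boundary peaks. The 4 sites with no pooled H3K4me3 peak were 2 at the pseudogene Gm51498 (fold enrichment 5.25 and 3.01), 1 near the end of Lars2, the mitochondrial leucyl-tRNA synthetase (5.16), and 1 over Rn18s-rs5 and AY036118 (4.70).

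The H3K4me3 peaks at the sites were broad. Their median widths were 3196, 3786 and 3314 bp in replicates 1, 2 and 3, against 2716, 3156 and 2870 bp at the other PSME3 boundary peaks. Differences of the median log2 width were 0.23, 0.26 and 0.21, and their mean was 0.23 ± 0.028 (SD, n = 3). The mark was wider at the replicated sites in 3 of 3 replicates, and a two-sided exact sign-flip test over them gave p = 0.25, which is as low as 3 replicates can go. Each day 2 library gave the same order, with differences of 0.22 to 0.28. Averaged over classes of PSME3 peak width, the difference was 0.069, so most of it went with the width of the PSME3 peak. H3K4me3 fold enrichment differed little, with medians of 18.3, 11.0 and 24.6 at the sites and 18.1, 10.6 and 23.9 at the others, and a mean log2 difference of 0.038 ± 0.025 (SD, n = 3). At day 2 the difference was 0.078 to 0.11, above 0 in 4 of 4 libraries.

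The difference from H3K4me3 boundary peaks without PSME3 was larger. Those had median widths of 2057, 1804 and 2167 bp in replicates 1, 2 and 3. On the log2 scale the replicated sites exceeded them by 0.64, 1.07 and 0.61, on average by 0.77 ± 0.26 (SD, n = 3; p = 0.25 by the same exact test, again its lowest value), and in the 4 day 2 libraries by 0.60 to 0.73. The value of replicate 2 stands apart, and its H3K4me3 list is the one with many narrow peaks. The 2 sets were split by an overlap of at least 1 bp, which a wide H3K4me3 peak meets more readily. How much of the gap comes from this choice was not tested. Among the replicated sites, divergent promoters had the wider mark, with log2 differences from sites at a single start of 0.22, 0.13 and 0.24 in the cycling replicates (mean 0.20 ± 0.062, SD, n = 3) and 0.13 to 0.20 at day 2.

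**Figure D3:**
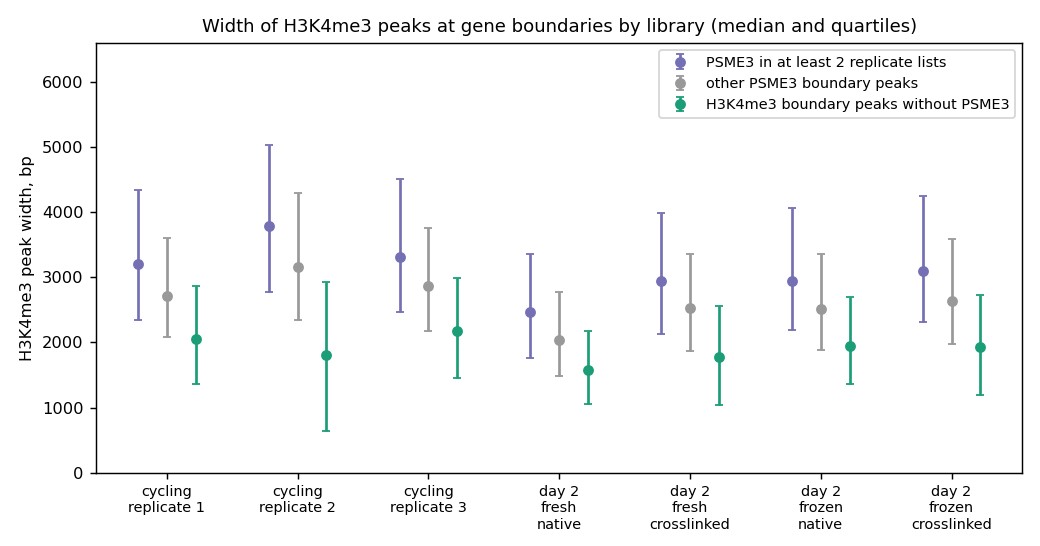
Width of H3K4me3 peaks in bp (y axis) in the 3 cycling replicates and the 4 day 2 libraries (x axis). Points are medians and bars the quartiles over peaks. The replicated PSME3 sites have the highest median in each library and the H3K4me3 boundary peaks without PSME3 the lowest, while the quartiles of the 3 sets overlap.

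Widths of the pooled H3K4me3 peak ranged from 637 to 31770 bp, and 160 sites (26.1%) lay in a peak of at least 5 kb, against 16.6% of the other PSME3 boundary peaks and 18.3% of all PSME3 boundary peaks with the mark. In the lists of replicates 1, 2 and 3 the share at the sites was 16.2%, 25.5% and 18.3%, so the pooled share is near that of replicate 2 alone. The widest marks were at Cirbp, which encodes an RNA-binding protein induced by cold (31770 bp), Neat1, the lncRNA of paraspeckles (23602 bp), Junb, a subunit of the AP-1 factor (22096 bp), Srsf2, a splicing factor (17763 bp), and Lockd, a lncRNA (17221 bp). The width at Cirbp came from replicate 2, with 33102 bp against 5942 and 6145 bp in replicates 1 and 3, and Junb behaved alike (27631 bp against 8506 and 9094 bp). At Srsf2 the replicates had 6951, 8715 and 6818 bp, each far below the pooled width. Neat1 was broad in every library, with 17787, 23146 and 19596 bp in cycling replicates 1, 2 and 3 and 13678 to 17299 bp at day 2, and so was Lockd. The narrowest marks were at Gm32011 (637 bp), Apol7a (816 bp), Nckap5los (890 bp), Gm23626 (942 bp) and 1110036E04Rik (973 bp). The pooled PSME3 fold enrichment was 2.76 to 3.54 at the 5 widest marks and 2.68 to 4.67 at the 5 narrowest, so the values overlapped.

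At day 2, PSME3 peaks remained listed at a minority of the sites and in frozen cells for the most part. The frozen native preparation, handled like the cycling cells, had a PSME3 peak at 120 of 618 sites (19.4%, interval 16.4 to 22.8%), and frozen crosslinked cells at 48 (7.77%). Fresh native and fresh crosslinked cells each had a peak at 3 (0.485%). Over all pooled PSME3 peaks the shares were 3.11%, 1.27%, 0.241% and 0.206% in the same order, and over all boundary peaks the frozen native share was 4.44%. Of the other boundary peaks 33 (1.17%) and of the 219 replicated peaks away from boundaries 25 (11.4%) had a frozen native peak. Those peaks away from boundaries were listed in the other preparations at 6.85% (frozen crosslinked), 4.11% (fresh native) and 2.74% (fresh crosslinked), and their shares in both fresh lists were above the 0.485% of the boundary sites. Both frozen preparations listed 41 of the sites. These sites made up most of the frozen lists, at 120 of 186 native peaks (64.5%) and 48 of 77 crosslinked peaks (62.3%). With 1 library per preparation no test was made. The frozen native cells match the cycling cells in freezing and in the lack of fixation, and for them library depth and differentiation cannot be told apart.

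The number of cycling replicates that listed a site went with its day 2 state. Of the 175 sites in all 3 lists, 78 (44.6%, interval 37.1 to 52.3%) had a frozen native peak, against 42 of the 443 in 2 lists (9.48%, interval 6.92 to 12.6%). Among boundary peaks found in 1 list the number was 26 of 1516 (1.72%), and among those in 0 lists 7 of 1315 (0.532%). Without replicate 1, 2 or 3 the share at the sites that remained was 24.1%, 26.5% or 41.0%. Boundary peaks were also split into 4 equal classes by pooled −log10 q. In the highest class, 118 of 451 replicated sites (26.2%) and 17 of 411 others (4.14%) had a frozen native peak, and in the next class 2 of 133 and 9 of 729 did. Of the 120 replicated sites with a frozen native peak, 118 thus lay in the highest class.

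Fbrs and Prr14, Lars2, and Rn18s-rs5 with AY036118 were listed in all 4 preparations. At Fbrs and Prr14 the day 2 fold enrichment was 7.32 and 5.67 in fresh cells, native and crosslinked, and 15.4 and 10.3 in frozen cells. In the same order, Lars2 had 5.10, 3.73, 13.8 and 6.09, and Rn18s-rs5 had 4.27, 3.20, 11.2 and 4.96. The frozen native value was the highest at each. Whether these signals depend on the antibody was not tested. Lars2 and Rn18s-rs5 were also listed with the H3K4me3 antibody in all 4 day 2 preparations, at 2.39 to 2.63 and 1.83 to 2.07. Other sites with a high pooled fold enrichment that were listed in at least 2 day 2 preparations lay at Tbl2, Mtrf1l, Myo6, B4galt5, Cyhr1 with Kifc2, and Brpf1 with Cpne9, each in the 2 frozen preparations. Mtrf1l had 10.3 in native and 5.77 in crosslinked frozen cells. Brpf1, a scaffold of histone acetyltransferase complexes, had 4.85 and 5.11. Zfpm1, a cofactor of GATA factors, chosen here after its values were seen, had the highest frozen native value (15.5). Of the 10 strongest cycling sites, Zbtb22 with Daxx, Rhpn2 and Hrob had no day 2 PSME3 peak.

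**Figure D4:**
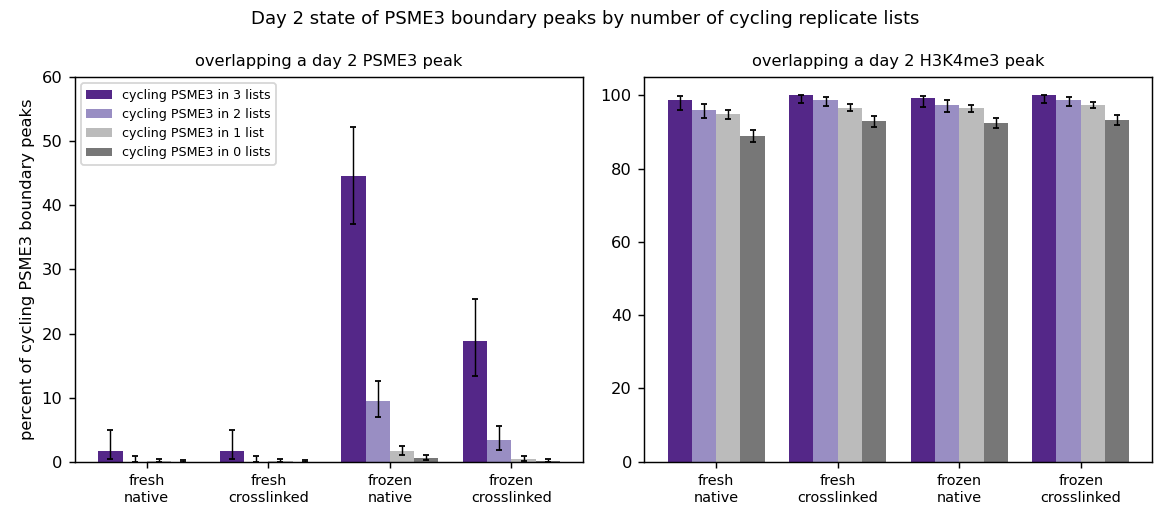
Percent of cycling PSME3 boundary peaks (y axis) that overlapped a day 2 PSME3 peak (left) or a day 2 H3K4me3 peak (right) in each preparation, by the number of cycling replicate lists that held the peak. Bars are shares and lines exact 95% intervals. In frozen native cells the PSME3 share is 44.6% for sites in 3 lists and 9.48% for sites in 2, while H3K4me3 is at 89.0% or more in every bar.

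H3K4me3 stayed at the sites at day 2. Fresh cells had a peak at 599 sites when native (96.9%) and 612 when crosslinked (99.0%), and frozen cells at 606 (98.1%) and 612 (99.0%), against 69.5%, 79.1%, 76.6% and 80.5% of all pooled PSME3 peaks. Near gene boundaries the background was close to the sites, at 95.3% in frozen native cells. All 4 preparations had the mark at 599 sites, 597 of them with a pooled cycling H3K4me3 peak (not Lars2 or Rn18s-rs5 with AY036118). The 19 others had a weaker mark in cycling cells, with a median pooled fold enrichment of 3.53 at the 17 that had a pooled peak, against 15.9, and 13 of the 19 had no protein-coding gene within 1 kb, against 28 of the 599. They include Ptprn, a protein of neuroendocrine secretory granules, where the pooled fold enrichment was 11.6 in cycling cells and no day 2 list had a peak. Pdgfb, a growth factor gene, had the mark in 2 preparations. Mylpf, the regulatory light chain of fast muscle myosin, with Tbc1d10b, and Ppp2r1b, a scaffold of PP2A, had it in 3.

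In the day 2 libraries the mark at the sites was narrower. Median widths at the sites were 2473 and 2936.5 bp in fresh cells, native and crosslinked, and 2945.5 and 3102.5 bp in frozen cells, below each of the cycling medians. In frozen native cells the median change per site was -0.12, -0.31 and -0.16 on the log2 scale against cycling replicates 1, 2 and 3, with 70.7%, 89.1% and 81.5% of sites narrower. The other PSME3 boundary peaks changed by -0.11, -0.31 and -0.19, so both sets of sites narrowed by like amounts. In fresh native cells it was larger, at -0.38, -0.58 and -0.43, and in frozen crosslinked cells smaller, at -0.036, -0.24 and -0.084, with 55.9% of sites narrower than in replicate 1. Fresh crosslinked cells gave -0.10, -0.31 and -0.16. Medians of the whole lists were 1483 and 1348 bp in fresh cells, native and crosslinked, and 1844 and 1456 bp in frozen cells. Cycling replicates 1, 2 and 3 had 1781, 662 and 1784 bp. These whole-list medians also depend on how many narrow peaks each list holds. Here too, with 1 frozen native library, depth and differentiation cannot be told apart.

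The genes at the sites were sorted into 12 lists of protein groups. A site lay at 6 of 65 genes of splicing and snRNP proteins (9.23%), where the share was 3.29% of all protein-coding genes and 5.95% of those with a pooled H3K4me3 boundary peak. Of the 65, 64 had a pooled H3K4me3 peak, and the interval of the list (3.46 to 19.0%) includes the second of these shares. Among them were Snrpd2 and Snrpd3, core proteins of the spliceosomal snRNPs, U2af2, which recognizes the 3′ splice site, Srsf2 and Hnrnpa1, with pooled fold enrichment of 3.47 to 3.91. Histone methyltransferase and chromatin remodelling proteins had 6 of 67 (8.96%): the acetyl-lysine reader Brd2 (3.58), Ep400 (3.56), Arid1a (3.03) and the methyltransferase genes Kmt2e, Kmt2a and Kmt2d. HSP90 and HSP70 chaperones and co-chaperones had 5 of 57 (8.77%), among them the ubiquitin ligase Stub1 (4.02), Hspa1b (3.46) and Dnajb1 (2.81). Integrin and focal adhesion proteins had 4 of 50 (8%), namely Tln1, Lims1, Vcl and Zyx, with values of 3.20 to 3.70.

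RNA polymerase II, Mediator and Integrator had 4 of 87 (Med16 at 4.99, Cdk9, Supt6 and Ints9). Proteasome subunits and regulators had 2 of 50, Psme2, a subunit of the related activator PA28αβ (3.67), and Psme3ip1, a protein that binds PSME3 (2.97, found in 2 replicate lists). Translation factors had 2 of 50 (Eif4a1 and Eif5a), sarcomere and contractile proteins 2 of 50, or of the 15 with a pooled H3K4me3 peak (Mylpf and Actn3), mitochondrial ribosomal proteins 2 of 79 (Mrpl41 and Mrpl40) and aminoacyl-tRNA synthetases 1 of 37 (Lars2). Cytosolic ribosomal proteins had 1 of 79 (Rps19, 3.55), with a pooled H3K4me3 peak at 79 of 79, and S phase and mitosis proteins 1 of 78 (Gins2). Their intervals (0.032 to 6.85% and 0.032 to 6.94%) include both background shares, 3.29% and 5.95%. Each list holds at most 6 genes with a site, and the intervals of all 12 overlap, so no order between lists is drawn. Of the genes of other proteins that the study examined, Psme3, Rprd1a, Myadm, Itgb3 and Myog had no pooled PSME3 boundary peak, and Nudc had 1 that no replicate list held.

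**Figure D5:**
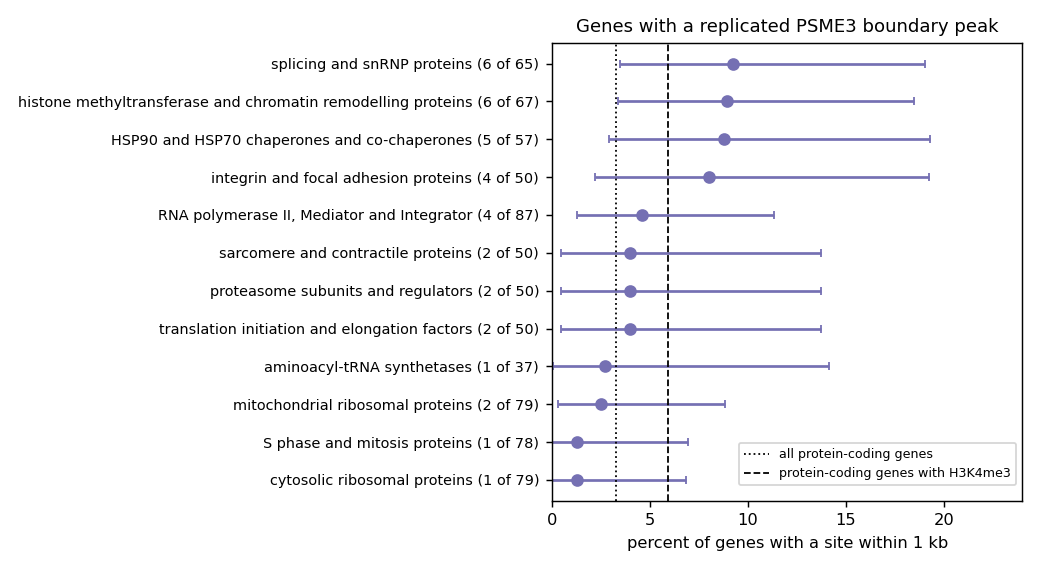
Percent of the genes of each list that had a replicated PSME3 peak within 1 kb (x axis), with exact 95% intervals for counting error. The dotted line marks the 3.29% of all protein-coding genes and the dashed line the 5.95% of those with a pooled H3K4me3 boundary peak. The points run from 1.27% for cytosolic ribosomal proteins to 9.23% for splicing proteins, and the intervals of all 12 lists overlap.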

How the data were processed

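CUT&RUN peak lists of 3 cycling PSME3 replicates, 3 cycling H3K4me3 replicates and 4 day 2 libraries per antibody were used, 14 of 21 libraries, with the pooled cycling lists of both antibodies. The 7 IgG libraries were not analysed here. Per the labels and the submitters' processing notes, the authors used Trim Galore for trimming, Bowtie2 for alignment to mm10 and MACS2 for peak calling. Versions, options and the control library are not given in the sources used here. The deposited lists have the layout of MACS2 broad peaks and give, per peak, a fold enrichment (a ratio to the estimated background), p- and q-values as −log10, and a score, of which p-values and scores were not used. Every listed peak has a q-value of at most 0.1. A longer list can come from a deeper library.

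Overlaps of at least 1 bp were found with scripts in Python 3.11.15 (pandas 2.3.3, numpy 2.4.6, scipy 1.17.1). Genes were those of GRCm38.p6 in RefSeq on assembled chromosomes, and strand and start sites came from the RefSeq promoter table, which holds 250 bases before and 50 after a start. Genes absent from it have no strand here. H3K4me3 widths were compared as differences of median log2 width within each library, with an exact sign-flip test over the 3 cycling replicates, and shares carry exact 95% Clopper-Pearson intervals. Overlap, distance and test functions were tested on simulated data. The sources call the replicates biological without naming separate cultures, so the p-values measure the spread between these samples alone. No file gives the depth, so no precision from read numbers can be stated.

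The sites, gene lists and motifs were chosen with earlier results of these data known. Named are the 10 highest-fold sites found in all 3 lists, the 8 highest among those in at least 2 day 2 lists, the 5 widest and 5 narrowest H3K4me3 marks, sites with no pooled H3K4me3 peak, the 8 strongest divergent promoters, the 3 sites with the most genes, up to 4 genes per list (more in some lists), the 3 sites on each side of the 1 kb limit, genes of proteins the study examined, and the sites whose day 2 H3K4me3 was missing in some library, which were added after seeing values. Some items that this rule selects are not reported here. Alternatives were a distance of 3 kb, an overlap of 50%, q-values of at most 0.05 or 0.01, protein-coding genes or starts alone, all 3 lists, and each replicate left out. Those by peak centre, by class of q-value, by PSME3 width class and on divergent pairs were chosen after seeing the data.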

Additional observations from a re-analysis of the deposited data

How the results depend on the processing

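The number of sites was 618. It was 276 with an overlap of 50% of the pooled peak, 175 when all 3 lists were required and 195 to 400 with a PSME3 replicate left out. The share near 2 or more genes (38.8%) was 49.0% at 3 kb, 24.3% with protein-coding genes alone, 44.0% in all 3 lists, 34.8% by peak centre and 37.75 to 43.1% with a replicate left out. With protein-coding genes alone, divergent pairs were at 8.49% of sites. The share with a frozen native day 2 PSME3 peak (19.4%) was 15.2% with day 2 q-values of at most 0.01, 44.6% in all 3 lists, 26.2% in the highest of 4 q-value classes and 24.1 to 41.0% with a replicate left out, and that with H3K4me3 (98.1%) was 97.25 to 99.7%. The cause was not tested. Both H3K4me3 width differences kept their sign under the alternatives run, and no result reversed. No paired analysis was possible because no 2 groups of samples that share replicate numbers are compared. The sign-flip test takes 1 difference between sets of peaks from each library. Read depth is unknown, so a site without a day 2 peak may lie under that list's threshold.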
